A study of Mus musculus with 30 samples.

Results

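Gene expression in the hearts of mice infused with angiotensin II for 7 days was compared directly with that in hearts infused for 1 day. The comparison rests on 6 arrays, the 3 labelled as heart at day 7 and the 3 labelled as heart at day 1, of 12 heart arrays and 30 arrays in the whole series, and they were chosen by their labels alone. All mice were male C57BL/6 of 8 to 10 weeks, and both groups carried osmotic pumps that delivered angiotensin II in Ringer's solution at 1500 ng per kg body weight per minute. The other heart arrays came from mice with no angiotensin II (day 0, 3 arrays) and from mice infused for 3 days (3 arrays), and the remaining arrays of the series from kidney, brain and vessel. Each day was measured in different animals, so a difference between days is a difference between groups of mice. The labels call the arrays biological replicates, and they do not say which organs shared a mouse or whether the day 0 mice carried a pump.

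Angiotensin II acts through the receptor encoded by Agtr1a to constrict vessels, to release aldosterone and to act on the cells of the heart itself. In rodents its infusion loads the left ventricle, draws neutrophils and monocytes into the heart wall, starts the cardiomyocyte stress response known as the fetal gene programme and later activates fibroblasts, which deposit collagen and proteoglycans. The comparison of day 7 with day 1 asks which of the early changes were no longer present after a week, which genes stayed at the level of the first day, and which rose only later.

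Values are the intensities deposited for Affymetrix probe sets, with 1 probe set per gene, and differences are differences of log2(intensity + 16), which understates the change of weak signals. On the 6 arrays the intensities ran from 3.38 to 22021 with array medians of 36.6 to 37.1. The heart label held on all 6 arrays: cardiac myosin Myh6 read between 13289 and 15398, ventricular light chain Myl2 between 19546 and 21529, and troponin I Tnni3 between 13327 and 14881, while no kidney or brain array passed 22.5, 110.3 and 43.1 for these genes. With 3 arrays a day, precision is low. Array values are given in the order of replicates 1, 2 and 3 throughout, and ± is the standard error of the limma fit to all 12 heart arrays.

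The day 1 arrays were unlike each other. Replicates 1 and 2 had 442 and 707 genes at least 2-fold away from the day 0 mean, and replicate 3 had 67, which lay within the 33 to 68 of the day 7 arrays. By Pearson correlation across the 14040 tested genes, which are not independent replicates, day 1 replicate 3 was closer to the 3 day 7 arrays (0.989 to 0.990) than to day 1 replicate 1 (0.983) or replicate 2 (0.971). No label sets replicate 3 apart, and it was kept in its group. Leaving it out raised the number of genes called between day 7 and day 1 from 691 to 2482, whereas the number fell to 11 without day 1 replicate 1 and to 72 without day 1 replicate 2. It was 119, 36 and 137 without day 7 replicates 1, 2 and 3, and between 358 and 845 without any single array of day 0 or day 3, which enter the fit through the shared spread. Each of the 691 genes kept its direction in all 12 of these fits. This was fixed in advance for 689 of them, whose day 1 and day 7 arrays did not overlap. Called in every fit were 11 of the 691. Those 11 were Ccl2, Hspa1b, Gadd45g, Saa3, Psat1, Fhl1 and Itga7, which fell, and Sparcl1, Adamtsl2, Itih5 and Cilp, which rose.

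**Figure D1:**
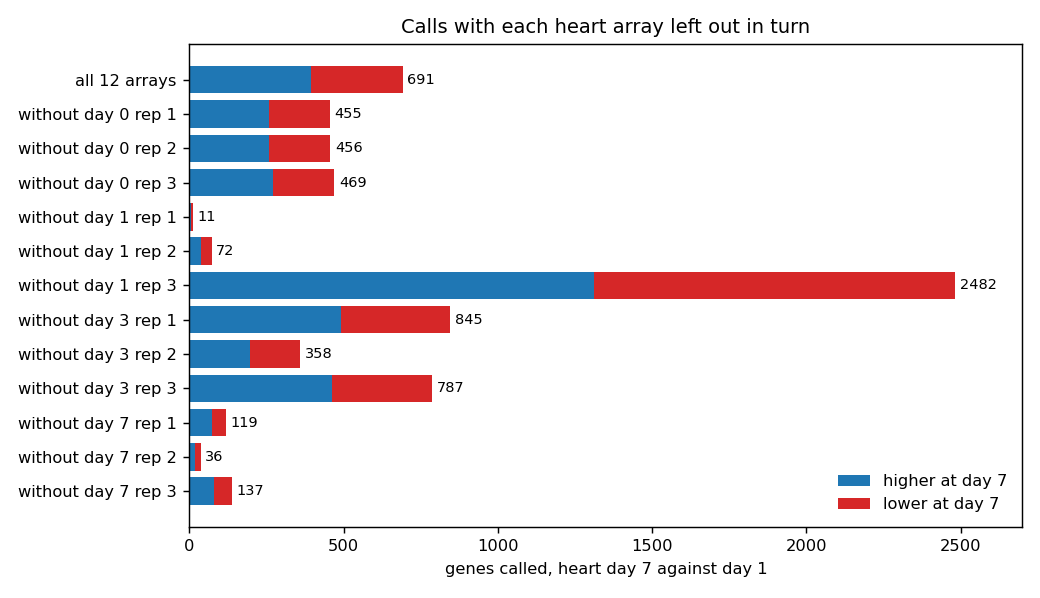
Number of genes called between heart day 7 and day 1 (x axis, genes at limma adjusted p under 0.05; blue, higher at day 7; red, lower at day 7) with all 12 heart arrays and with each array left out in turn (y axis). The count runs from 11 without day 1 replicate 1 to 2482 without day 1 replicate 3, against 691 with all arrays.

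Of 14040 genes tested, 691 (4.92%) differed between day 7 and day 1 at a Benjamini-Hochberg adjusted p under 0.05 in limma. A total of 393 genes (2.8%) were higher at day 7 and 298 (2.12%) were lower, and 3079 (21.9%) had an unadjusted p under 0.05. The large differences were mostly falls, with 82 genes (0.584%) at least 2-fold lower and 36 (0.256%) at least 2-fold higher. The arrays of the groups did not overlap for 3574 genes (25.5%), and for 689 of the 691 called genes (99.7%). The median difference over all tested genes was 0.01. Against day 0, the same fit called 1886 genes (13.4%) at day 1, 683 higher (4.86%) and 1203 lower (8.57%), and 7 genes (0.0499%) at day 7, 6 higher (0.0427%) and 1 lower (0.00712%). Between day 7 and day 3 limma called 0 genes, with 983 (7%) at an unadjusted p under 0.05. These comparisons share arrays with that of day 7 and day 1, so their values are set side by side for each gene and nothing is read from their agreement. Members of 38 gene lists were followed, of which 714 distinct genes were tested.

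Genes of inflammation were among the largest falls. Chil3, a chitinase-like protein secreted by myeloid cells, read 2264, 3215 and 660.1 on the day 1 arrays, 53.6, 64.3 and 196 on the day 7 arrays and 20.8, 27.8 and 63 at day 0. All day 7 arrays lay below all day 1 arrays, although replicate 3 was the lowest of day 1 and the highest of day 7. Chil3 fell by 4.01 ± 0.53 on the log2 scale (16.1-fold, adjusted p = 0.00528), and its differences from day 0 were 5.08 at day 1 and 1.07 at day 7. Ccl2, the chemokine that recruits monocytes through the receptor Ccr2, read 841, 1668 and 318 at day 1, 76.8, 72.6 and 71.3 at day 7 and 86, 66.2 and 84.6 at day 0. The day 7 arrays lay close together and inside the range of day 0, well below every day 1 array. Ccl2 fell by 3.13 ± 0.40 (8.76-fold, adjusted p = 0.00462). In bulk heart RNA, fewer cells of a type and less RNA per cell cannot be told apart.

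Of the 20 tested chemokine genes, 5 fell from day 1 to day 7 and none rose (list median -0.52). Besides Ccl2 these were Ccl7 (-2.10 ± 0.31) and Ccl12 (-1.35 ± 0.33), which also attract monocytes, the neutrophil attractant Cxcl5 (-2.51 ± 0.59) and the interferon-induced Cxcl10 (-0.87 ± 0.21), chosen after its values were seen. Cxcl5 read 235, 278 and 18.8 at day 1 and 6.51, 6.94 and 10.9 at day 7, so its mean rests on replicates 1 and 2. It was called in 3 of the 12 fits that leave out an array. Genes were tested if they passed a percentile of each array, the filter level, on at least 3 heart arrays. That level was 24.6 to 26.6. Cxcl5 passed it only on replicates 1 and 2 of day 1 and on replicate 1 of day 3 (35.0). The readings behind its fall thus also helped to admit it to the test. The number of falls in the list was 1 without day 1 replicate 1, 2 without replicate 2 and 11 without replicate 3.

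Among 20 genes of Il6 and related cytokine signalling, 4 fell and none rose (list median -0.36). Il6 itself, the cytokine that drives the acute phase response, read 241, 419 and 45.5 at day 1, 18.4, 11.3 and 21.7 at day 7 and 7.15, 6.77 and 8.77 at day 0. The day 7 arrays were all below those of day 1 and all above those of day 0. The readings of day 7 and day 0 lay below the filter level, so nothing is read from their order. Il6 fell by 2.54 ± 0.56 (5.8-fold, adjusted p = 0.0286). It passed the filter level only on the day 1 arrays and on replicates 1 and 3 of day 3 (114 and 83.1). As with Cxcl5, the readings behind its fall also helped to admit it to the test. Socs3, the inhibitor that Il6 signalling induces, read 1630.2, 1515 and 382 at day 1 and 174, 149.6 and 236 at day 7, and fell by 2.33 ± 0.42 (adjusted p = 0.0135). Its day 1 replicate 3 lay between the other day 1 arrays and those of day 7. The fibroblast cytokine Il11 fell by 0.46 ± 0.10 and the transducer Stat3 by 0.53 ± 0.13. Other Stat3 probe sets differed by -0.48 to 0.14, and with the mean of all of them it was not called (adjusted p = 0.168). The falls in this list numbered 0 without day 1 replicate 1, 0 without replicate 2 and 11 without replicate 3.

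All 18 tested genes of neutrophils and the acute phase had a negative difference (list median -0.92), and 4 of them passed the test. Saa3, an acute phase serum amyloid, read 571, 1151 and 643 at day 1, 173, 100 and 172 at day 7 and 49.4, 57.3 and 106 at day 0. The day 7 arrays lay far below all day 1 arrays, replicate 3 included, and overlapped those of day 0. Saa3 fell by 2.26 ± 0.31 (4.79-fold, adjusted p = 0.00589). Lcn2, the iron-sequestering lipocalin of neutrophil granules, fell by 2.33 ± 0.39, the collagenase Mmp8 by 1.06 ± 0.23 and the granule protein Ngp by 0.63 ± 0.16. Mmp8 read 85.4, 79.8 and 30.6 at day 1 and 21.9, 15.7 and 25.3 at day 7. Among the heart arrays it passed the filter level on those of day 1 alone. The same high readings thus admitted Mmp8 to the test and gave its fall. The calgranulins S100a8 and S100a9, chosen after their values were seen, differed by -2.58 ± 0.80 and -2.59 ± 0.87 and did not pass (adjusted p = 0.0801 and 0.105). The median of this list stood 1.62, 1.81 and 0.30 above the day 0 mean on the day 1 arrays and 0.19, 0.08 and 0.40 on the day 7 arrays, so day 1 replicate 3 lay within the day 7 range. The number of falls was 1 without day 1 replicate 1, 1 without replicate 2 and 15 without replicate 3.

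Among 23 monocyte and macrophage genes 1 fell (4.35%) and none rose, with a list median of -0.50. Over all genes 4.92% were called and 2.12% were called lower, so nothing is read from this count. The gene that fell was Ccr1, a chemokine receptor (-1.59 ± 0.41, adjusted p = 0.0469). It was called in 3 of the 12 fits that leave out an array and not called with the mean of its probe sets (adjusted p = 0.0767). Cd68, a lysosomal glycoprotein of macrophages chosen after its values were seen, read 435, 624 and 271 at day 1 and 182, 299.6 and 268 at day 7, and its groups overlapped. Its difference was -0.74 ± 0.29, with an unadjusted 95% interval of -1.37 to -0.11 and an adjusted p of 0.161. Without day 1 replicate 3 the list had 11 falls, and it had 0 without replicate 1 or replicate 2. Of 18 genes of resident and alternatively activated macrophages, Chil3 and the scavenger receptor Msr1 (-0.51 ± 0.10) fell. The median of that list was -0.0023, and the mannose receptor Mrc1, also chosen after its values were seen, stood at -0.23 ± 0.20 (interval -0.66 to 0.20).

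Markers of lymphocytes gave few calls. Of 12 T and NK cell genes, all with negative differences, granzyme B (Gzmb) fell by 1.59 ± 0.27 (adjusted p = 0.0122) from 250.3, 83.5 and 172 to 28.7, 41.9 and 55. Limma called none of 7 B cell genes and none of 8 MHC class II genes, with 2 and 0 at an unadjusted p under 0.05. Over all genes the shares were 4.92% and 21.9%, so lists this short would hold few or no calls in any case. Among 23 interferon-stimulated genes Cmpk2 rose by 0.86 ± 0.22, but its other probe set differed by -0.03, and with the mean of its probe sets it was not called. For tissue that could come with the heart, limma called none of 4 red cell, 9 skeletal muscle, 13 atrial or 11 mesothelial and lung genes. At an unadjusted p under 0.05 there were 0, 1, 3 and 2. Beside the 4.92% of all genes called, lists of this length do not tell whether such tissue differed between the groups. All 13 atrial genes had positive differences (median 0.15), and 10 of the 11 mesothelial and lung genes negative differences (median -0.22). Their part in the other results was not tested.

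**Figure D2:**
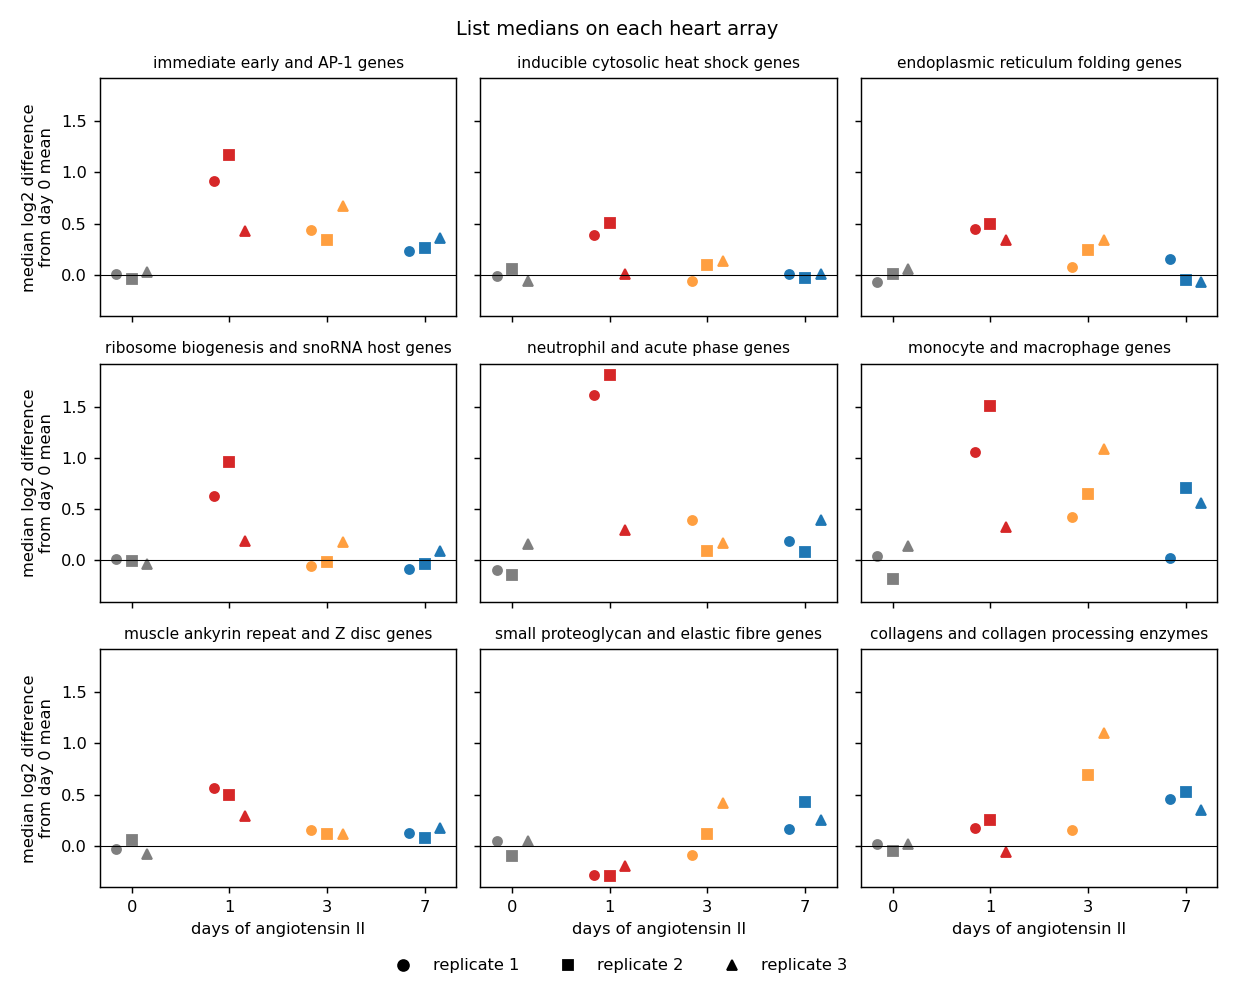
Median of 9 gene lists on each heart array, as the log2 difference from the day 0 mean (y axis), against days of angiotensin II (x axis), with 1 point per array and the replicate shown by its shape. Day 1 replicate 3 (triangle) lies below replicates 1 and 2 in the inflammation and stress lists, at 0.30 against 1.62 and 1.81 for neutrophil and acute phase genes, and among or near the day 7 arrays in several of them.

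The immediate early genes, transcription factors and feedback regulators that cells switch on within minutes to hours of a stimulus, fell as well: 8 of 27 tested members fell, none rose, and 24 had negative differences (list median -0.60). Gadd45g, a growth arrest gene, read 879, 1848 and 564 at day 1, 146, 156 and 173 at day 7 and 206, 186 and 163 at day 0. The groups of day 1 and day 7 did not overlap, while those of day 7 and day 0 did. Gadd45g fell by 2.51 ± 0.30 (5.7-fold, adjusted p = 0.00445). The growth regulator Myc fell by 1.43 ± 0.36, the stress gene Ier3 by 1.24 ± 0.24 and the AP-1 subunit Junb by 1.07 ± 0.23. Myc read 172, 239 and 45.6 at day 1 and 33.4, 39.0 and 39.4 at day 7, so its mean rests on replicates 1 and 2. It was called in 3 of the 12 fits that leave out an array. Egr1, a zinc finger factor, read 792, 1365 and 1525 at day 1, 384, 728 and 479 at day 7 and 267, 337 and 269.7 at day 0, and fell by 1.18 ± 0.28 (adjusted p = 0.0355). Here day 1 replicate 3 was the highest array, unlike in the inflammation genes. Smaller falls were those of Zfp36, which destabilizes cytokine mRNA (-0.76 ± 0.16), the phosphatase Dusp5 (-0.75 ± 0.16) and Ier2 (-0.49 ± 0.13).

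Fos, the AP-1 subunit, missed the threshold (difference -1.05 ± 0.29, interval -1.68 to -0.43, adjusted p = 0.0555). It read 632, 976 and 641 at day 1, 264, 322 and 483 at day 7 and 116, 136 and 147 at day 0, and the 3 groups did not overlap. Its difference from day 0 was 2.34 at day 1 (adjusted p = 0.0014) and 1.28 at day 7 (adjusted p = 0.215). Fos, Junb, Zfp36, Dusp5 and Ier2 were described after their values were seen. The number of falls was 1 without day 1 replicate 1, 1 without replicate 2 and 17 without replicate 3.

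Cytosolic heat shock proteins refold denatured proteins, and their genes are switched on by the factor Hsf1. Of 19 such genes, 6 fell and none rose (list median -0.33). Hspa1b, an inducible Hsp70, read 2278, 2248 and 791 at day 1, 216, 241 and 191 at day 7 and 119, 150.2 and 197 at day 0. The day 1 arrays, replicate 3 included, all lay far above the rest. Hspa1b fell by 2.80 ± 0.32 (6.97-fold, adjusted p = 0.00445) and its near-identical neighbour Hspa1a by 2.45 ± 0.32. Probe sets may not separate the transcripts of these 2 genes. The small heat shock protein Hspb1 fell by 1.16 ± 0.18 from readings of 17728, 21230 and 11428 to 7078, 7322 and 7433. The other falls were the cochaperone Dnajb1 (-0.95 ± 0.21), the inducible Hsp90 gene Hsp90aa1 (-0.82 ± 0.20) and the desmin chaperone Cryab (-0.44 ± 0.11), the last pair chosen after their values were seen. With the mean of their probe sets Dnajb1 and Hsp90aa1 were not called (adjusted p = 0.0807 and 0.0681). The number of falls was 1 without day 1 replicate 1, 3 without replicate 2 and 11 without replicate 3.

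The heat shock element, searched as GAANNTTC or TTCNNGAA on both strands, is the site that Hsf1 binds. In RefSeq windows of 300 bases, from 250 before to 50 after the annotated start, it occurs in 15.1% of 32851 mouse promoters and in 11 of the 16 genes of the heat shock list that have a window. The windows of 3 of 4 genes that fell and of 8 of 12 that were not called held it. The Hspa1b promoter is shown as the example, at chr17:34959189-34959488 (minus strand) of GRCm38.p6, 5′ to 3′, with the heat shock element in capitals.
Hspa1b: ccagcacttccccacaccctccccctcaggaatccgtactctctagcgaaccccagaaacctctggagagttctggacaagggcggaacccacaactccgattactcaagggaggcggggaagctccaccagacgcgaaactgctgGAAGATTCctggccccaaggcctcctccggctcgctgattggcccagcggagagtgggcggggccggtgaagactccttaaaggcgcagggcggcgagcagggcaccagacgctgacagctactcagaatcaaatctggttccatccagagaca

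Folding genes of the endoplasmic reticulum gave 9 calls among 19 tested members (47.4%), of which 8 fell and 1 rose (list median -0.36). Manf, a secreted factor of the reticulum, read 1861, 1875 and 1362 at day 1, 982, 686 and 651 at day 7 and 784, 836 and 791 at day 0. Its day 1 arrays lay above all others of these days, and it fell by 1.13 ± 0.19 (2.19-fold, adjusted p = 0.0103). Sdf2l1, a partner of the Hsp70 of the reticulum, read 202, 241 and 159.8 at day 1 and 159, 82 and 73.1 at day 7. Replicates 2 and 3 of day 7 were below the day 0 values of 102, 97.4 and 112, while replicate 1 stayed next to the lowest day 1 array. Sdf2l1 fell by 0.90 ± 0.21 (adjusted p = 0.032).

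Pdia6, a disulfide isomerase, fell by 0.85 ± 0.14 (adjusted p = 0.0108), Creld2 by 0.78 ± 0.17 and Pdia3 by 0.62 ± 0.17. Xbp1, the transcription factor of the unfolded protein response, fell by 0.72 ± 0.12 (adjusted p = 0.0103), and Hspa5, the main chaperone of the reticulum, also called BiP, by 0.61 ± 0.14. Hspa5 read 4212, 4592 and 4428 at day 1 and 3768, 2473 and 2596 at day 7, with replicate 1 the highest of day 7, as in Sdf2l1 and Pdia6. Hyou1 fell by 0.54 ± 0.10, but its other probe sets differed by -0.01 and -0.12. The transcription factor Atf4 (-0.54 ± 0.22, adjusted p = 0.181) and the death-associated Ddit3 (-0.05 ± 0.11, adjusted p = 0.849) did not pass. Pdia3, Creld2, Xbp1, Hspa5, Hyou1, Atf4 and Ddit3 were named after their values were seen.

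Herpud1, which helps to remove misfolded proteins from the reticulum, went the other way. It read 837, 619 and 957 at day 1, 1287, 1407 and 1806 at day 7 and 1334, 1516 and 1536 at day 0, so that the day 1 arrays were the low ones. It rose by 0.89 ± 0.17 (adjusted p = 0.0157), and its second probe set differed by 0.87. The number of falls was 0 without day 1 replicate 1, 1 without replicate 2 and 11 without replicate 3, and Herpud1 was called in 8 of the 12 fits that leave out an array.

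The ER stress response element, searched as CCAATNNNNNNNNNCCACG on both strands, joins a CCAAT box to the site of Atf6 and Xbp1. It was chosen after the results were seen. It occurs in 0.119% of the 32851 promoter windows and in 7 of the 17 genes of this list with a window: Hspa5, Hsp90b1, Pdia6, Calr, Canx, Dnajc3 and Creld2. It was found in 3 of 6 that fell and in 4 of 10 that were not called, and it includes 1 of the CCAAT boxes counted next. The CCAAT box alone occurs in 37.4% of all windows and in 15 of these 17. Only the spacing given above was searched as the element, and the Herpud1 window holds ATTGG and CCACG 1 base apart. Herpud1 is the gene of the list that rose, and Chil3 had the largest fall of all genes. The promoters of Hspa5 and Pdia6 (both with the searched form), of Sdf2l1 and Herpud1 (both without it) and of Chil3 are shown for comparison. They lie at chr2:34771840-34772139 (plus strand), chr12:17266339-17266638 (plus strand), chr16:17132334-17132633 (minus strand), chr8:94386179-94386478 (plus strand) and chr3:106167515-106167814 (minus strand) of GRCm38.p6 and are written 5′ to 3′ on the gene's strand. Capitals mark CCAAT boxes on either strand (ATTGG on the other) and the whole element.
Hspa5: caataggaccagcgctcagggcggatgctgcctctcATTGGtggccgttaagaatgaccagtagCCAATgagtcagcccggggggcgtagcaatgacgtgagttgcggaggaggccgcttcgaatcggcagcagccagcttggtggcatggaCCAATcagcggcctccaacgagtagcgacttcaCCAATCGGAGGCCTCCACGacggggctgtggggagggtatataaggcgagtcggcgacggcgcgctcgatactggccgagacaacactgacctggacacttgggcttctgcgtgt
Pdia6: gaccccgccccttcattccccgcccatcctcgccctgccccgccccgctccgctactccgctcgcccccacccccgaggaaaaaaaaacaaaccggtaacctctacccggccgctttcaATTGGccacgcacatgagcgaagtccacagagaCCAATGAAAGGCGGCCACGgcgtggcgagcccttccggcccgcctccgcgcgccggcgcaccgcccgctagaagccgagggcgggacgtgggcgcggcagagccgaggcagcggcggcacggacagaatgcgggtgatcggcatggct
Sdf2l1: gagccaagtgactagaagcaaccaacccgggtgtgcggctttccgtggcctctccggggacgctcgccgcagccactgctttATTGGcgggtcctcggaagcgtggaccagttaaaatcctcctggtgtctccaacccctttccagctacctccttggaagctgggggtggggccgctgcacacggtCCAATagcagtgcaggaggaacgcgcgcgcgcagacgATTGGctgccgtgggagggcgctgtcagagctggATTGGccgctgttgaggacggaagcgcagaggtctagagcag
Herpud1: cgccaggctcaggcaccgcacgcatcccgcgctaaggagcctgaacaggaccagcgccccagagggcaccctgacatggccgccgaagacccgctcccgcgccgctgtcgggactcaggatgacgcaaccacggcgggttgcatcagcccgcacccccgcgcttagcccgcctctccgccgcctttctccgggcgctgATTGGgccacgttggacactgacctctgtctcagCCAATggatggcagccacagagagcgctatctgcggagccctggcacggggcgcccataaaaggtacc
Chil3: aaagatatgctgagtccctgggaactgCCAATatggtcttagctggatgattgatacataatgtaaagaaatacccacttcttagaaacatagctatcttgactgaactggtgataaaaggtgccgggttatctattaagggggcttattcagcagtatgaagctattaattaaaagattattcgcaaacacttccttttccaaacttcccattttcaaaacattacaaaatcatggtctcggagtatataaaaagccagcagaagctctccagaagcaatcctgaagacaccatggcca

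The Hspa5 window held 4 CCAAT boxes, that of Sdf2l1 also 4, those of Pdia6 and Herpud1 2 each and that of Chil3 1. An AP-1 site (TGANTCA), the sequence bound by Fos and Jun and present in 7.81% of all windows, was found in Hspa5 alone among these and the Hspa1b window. A CArG box, the site of serum response factor and present in 1.63% of all windows, was found in Herpud1 alone. A match is a string of letters, not a measured binding site.

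Ribosome biogenesis, the making of rRNA and its assembly with ribosomal proteins in the nucleolus, had 22 tested genes, of which 8 fell and none rose, and all 22 had negative differences (list median -0.53). The processing factor Rrp12 read 252, 401 and 145 at day 1, 79.5, 95.3 and 95.8 at day 7 and 96.2, 86.9 and 77.1 at day 0, and fell by 1.31 ± 0.24 (adjusted p = 0.0156). Day 7 and day 0 overlapped, and replicate 3 was the lowest of day 1. The box C/D particle proteins Nop58 (-1.13 ± 0.23), Nop56 (-0.88 ± 0.21) and fibrillarin Fbl (-0.70 ± 0.17) fell, as did Nolc1 (-0.91 ± 0.21) and Dkc1 (-0.73 ± 0.16), which belong to or serve the H/ACA particles. Mybbp1a (-0.65 ± 0.15) and Bop1 (-0.51 ± 0.13) completed the 8. Fbl, Dkc1, Mybbp1a and Bop1 were named after their values were seen, and with the mean of their probe sets Fbl, Mybbp1a and Bop1 were not called (adjusted p = 0.0604, 0.0512 and 0.0845). Relative to the day 0 mean, the median of these genes was 0.62, 0.96 and 0.19 on the day 1 arrays and -0.09, -0.04 and 0.09 on those of day 7, and the number of falls was 0 without day 1 replicate 1, 1 without replicate 2 and 16 without replicate 3.

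In the heart muscle itself, genes of the muscle ankyrin repeat proteins and of the Z disc, where actin filaments are anchored and stretch is sensed, fell in 9 of 21 cases and rose in none (list median -0.32). Ankrd2 read 744, 921 and 141 at day 1, 37.8, 37.7 and 37.3 at day 7 and 28.8, 31.8 and 33.6 at day 0. The day 7 arrays were nearly equal and just above day 0, and day 1 replicate 3 lay well below replicates 1 and 2. Ankrd2 fell by 3.17 ± 0.48 (8.98-fold, adjusted p = 0.00743). The actin crosslinker filamin C, Flnc, read 3482, 4053 and 1479.5 at day 1 and 757, 675 and 616 at day 7 and fell by 1.99 ± 0.28. The LIM protein Fhl1, a sensor of sarcomere stretch, read 9705, 9983 and 5934 and 3281, 2802 and 2899, and fell by 1.47 ± 0.19 (adjusted p = 0.00462). All 3 genes had day 7 arrays below every day 1 array.

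Synpo2l, a Z disc actin-binding protein, fell by 1.46 ± 0.23, Xirp1 by 1.00 ± 0.22, desmin (Des) by 0.52 ± 0.12, the muscle LIM protein Csrp3 by 0.49 ± 0.09 and Cryab, counted above, by 0.44 ± 0.11. Structural members such as alpha-actinin, Actn2 (-0.08 ± 0.09, adjusted p = 0.648), and telethonin, Tcap (0.39 ± 0.19, adjusted p = 0.242), did not pass. Xirp1, Des, Csrp3, Actn2 and Tcap were named after their values were seen. The number of falls was 1 without day 1 replicate 1, 4 without replicate 2 and 11 without replicate 3.

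Few genes were called away from the day 0 level at day 7, and a gene that was not called need not have returned to it. Nox4 and Timp1, given below, had every day 7 array above every day 0 array and were not called. The 7 genes called between day 7 and day 0 (0.0499% of those tested) were Myh7, Cilp, Acta1, Mybpc2, Ankrd1 and Depp1, which were higher, and Ano10, which was lower. Their direct comparison with day 1 divides them into genes whose difference from day 1 was not called, a gene that fell but stayed above day 0, and genes that rose from day 1.

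Myh7, the slow beta-myosin of the fetal mouse ventricle, read 353, 540.1 and 578 at day 0, 6897, 7441 and 7270.1 at day 1, 5066, 2193 and 1940.1 at day 3 and 4094, 3424 and 5933 at day 7. All day 7 arrays lay below the day 1 arrays and far above the day 0 arrays. Against day 0 it was higher by 3.14 ± 0.31 (8.84-fold, adjusted p = 0.00106), and against day 1 it differed by -0.72 ± 0.31 with an interval of -1.39 to -0.05 (adjusted p = 0.193). Depp1, a gene induced by forkhead factors, read 582, 563 and 626 at day 0, 1332, 1441 and 1439 at day 1, 899.6, 771 and 939 at day 3 and 1100.2, 1578 and 1467 at day 7. Its day 1 and day 7 arrays overlapped and the day 3 arrays lay below all of them. The difference between day 7 and day 1 was -0.04 ± 0.13 (interval -0.31 to 0.24), against a difference from day 0 of 1.19 ± 0.13 (adjusted p = 0.00122). Ano10, of the anoctamin family of membrane proteins, read 1394, 1766 and 1595 at day 0, 396, 584 and 767 at day 1 and 404, 424 and 448 at day 7. It remained low throughout, with overlapping groups at day 1 and day 7, a difference between them of -0.39 ± 0.19 (interval -0.80 to 0.01) and a difference from day 0 of -1.85 ± 0.19 (adjusted p = 0.00106).

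Ankrd1, the cardiac ankyrin repeat protein, read 2459.8, 2847 and 2479 at day 0, 10560, 11523 and 8643 at day 1 and 5786, 6429.6 and 6790 at day 7. The 3 groups were fully apart, with day 7 in between. It fell by 0.68 ± 0.12 from day 1 (adjusted p = 0.0146) and was still higher than at day 0 by 1.28 ± 0.12 (adjusted p = 0.00106).

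Acta1, the skeletal alpha-actin that the stressed ventricle takes up again, read 2865, 1667 and 1888 at day 0, 3522, 4325 and 2662 at day 1, 5437, 5779 and 6417 at day 3 and 7326, 6227 and 6472 at day 7. Every day 7 array was above every day 1 array. Acta1 rose by 0.95 ± 0.20 from day 1 (1.93-fold, adjusted p = 0.0218) and stood 1.67 ± 0.20 above day 0. Mybpc2, the fast-type myosin-binding protein C, read 112, 102 and 83 at day 0, 122, 135 and 139 at day 1 and 217, 259.9 and 327 at day 7, and rose by 0.92 ± 0.14 (adjusted p = 0.00746). At day 1 its readings lay just above those of day 0 (difference 0.37, adjusted p = 0.094), and at day 7 they lay well above both. Between day 7 and day 3 the differences were 0.18 ± 0.20 for Acta1 and 0.22 ± 0.14 for Mybpc2, neither of them called.

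Among the 16 fetal programme and natriuretic peptide genes, 2 rose (Acta1 and Mybpc2) and 2 fell. Nmrk2, a nicotinamide riboside kinase of muscle, read 1774, 2606 and 654 at day 1, 202, 524 and 1033 at day 3 and 196, 159.8 and 198 at day 7, against 128, 122 and 105 at day 0. The day 3 arrays were widely spread, while those of day 7 lay together just above day 0, and Nmrk2 fell by 2.87 ± 0.50 (7.33-fold, adjusted p = 0.0124). Rcan1, an inhibitor of calcineurin that calcineurin induces, fell by 1.21 ± 0.26 (adjusted p = 0.0245). Nppb, the B-type natriuretic peptide, read 13125, 15063 and 9242 at day 1, 7271, 9338 and 7517 at day 7 and 2907, 4375 and 4098 at day 0. Its groups at day 1 and day 7 overlapped by a narrow margin and its difference of -0.61 ± 0.20 was not called (interval -1.05 to -0.18, adjusted p = 0.096). For Nppa, the atrial peptide, the arrays read 15558, 13615 and 14453 at day 1 and 14819, 15771 and 15738 at day 7, with overlap, and the difference was 0.09 ± 0.14 (interval -0.22 to 0.40). The list had 0, 2 and 3 rises and 0, 0 and 4 falls without day 1 replicates 1, 2 and 3 in turn.

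**Figure D3:**
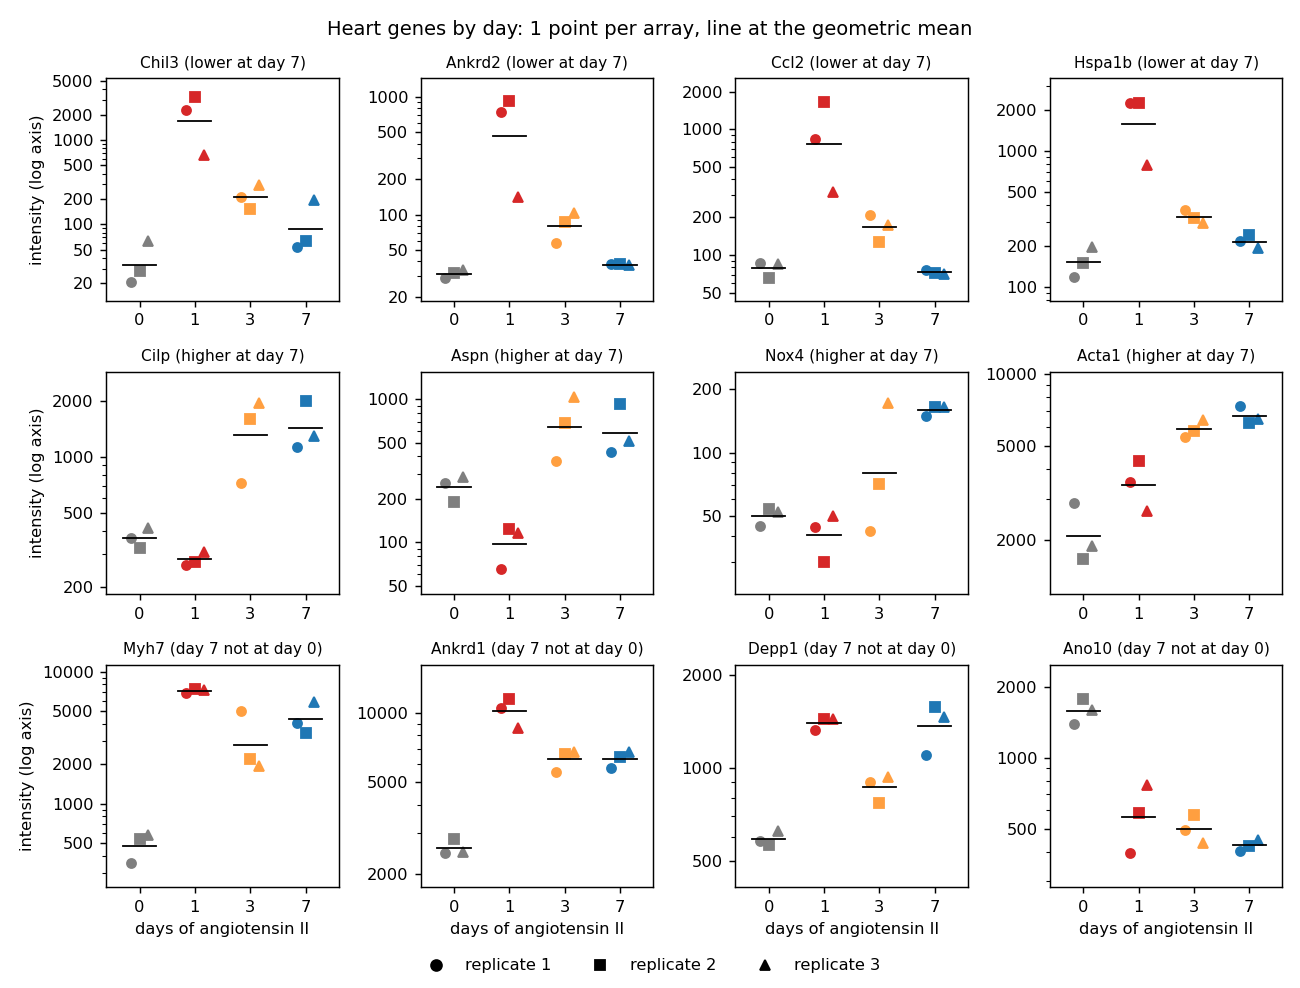
Intensity (y axis, log scale) of 12 heart genes against days of angiotensin II (x axis), with 1 point per array, the replicate shown by its shape and a line at the geometric mean of the 3 arrays. The top row shows genes that were lower at day 7 than at day 1, the middle row genes that were higher, and the bottom row genes called between day 7 and day 0, of which only Ankrd1 was also called between day 7 and day 1.

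Genes of adult contraction and excitability rose in 4 of 25 cases and fell in none, and 21 differences were positive (list median 0.17). Kcne1, a potassium channel subunit, read 36.5, 36.8 and 75 at day 1, 115, 158 and 154 at day 7 and 69.1, 119 and 54.9 at day 0. Its day 7 arrays were above all day 1 arrays, and it rose by 1.31 ± 0.24 (2.48-fold, adjusted p = 0.0146), while its other probe set differed by 0.35. Kcnip2, which sets the fast transient outward current, rose by 0.77 ± 0.19, but its other probe sets differed by 0.15 and 0.01 and it was not called with the mean of all of them. The sodium channel subunit Scn4b read 162, 162 and 139 at day 0, 36.3, 45.6 and 56.1 at day 1 and 115, 73.3 and 80.9 at day 7. It rose by 0.76 ± 0.16 from day 1 and every day 7 array was still below every day 0 array (difference -0.71, adjusted p = 0.211). Cardiac myosin-binding protein C, Mybpc3, rose by 0.48 ± 0.13, and the alpha-myosin Myh6 differed by 0.08 ± 0.09 (interval -0.10 to 0.27). The number of rises was 0 without day 1 replicate 1, 0 without replicate 2 and 8 without replicate 3.

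Most genes of fuel use had small positive differences. Ppargc1a, the coactivator of mitochondrial biogenesis, read 906, 829 and 1369.5 at day 1, 1753, 1847 and 2291 at day 7 and 2278, 2687 and 2290.2 at day 0. Day 1 was the low group, and Ppargc1a rose by 0.94 ± 0.17 (1.92-fold, adjusted p = 0.0144), with its 4 other probe sets between 0.88 and 1.24. It was the only call among 30 fatty acid oxidation genes, of which 23 had positive differences (list median 0.09). Of 42 respiratory chain and ATP synthase genes limma called 0, with 7 at an unadjusted p under 0.05, against 4.92% and 21.9% of all genes. Their differences were positive in 41 cases and none exceeded that of Sdhd, a subunit of complex II (0.32 ± 0.10, adjusted p = 0.0804).

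Among 18 genes of glycolysis and glucose uptake, 5 rose and 1 fell (list median 0.13). The insulin-responsive glucose transporter Slc2a4 read 989, 722 and 1538 at day 1 and 1877, 1696 and 1808 at day 7 and rose by 0.79 ± 0.21, while the basal transporter Slc2a1 read 546, 688 and 335 and 274, 259 and 288 and fell by 0.84 ± 0.19. In both genes day 1 replicate 3 lay between the rest of day 1 and day 7. Muscle phosphoglycerate mutase Pgam2 rose by 0.59 ± 0.10 (adjusted p = 0.0105), muscle enolase Eno3 by 0.46 ± 0.11 and Tpi1 by 0.40 ± 0.10. Pfkfb2, the cardiac regulator of phosphofructokinase, rose by 1.14 ± 0.25, but its 3 other probe sets differed by 0.12 to 0.31. With the mean of all probe sets Slc2a1 (-0.80, adjusted p = 0.0505), Slc2a4 (0.73, adjusted p = 0.0633) and Pfkfb2 were not called. Eno3 and Tpi1 were named after their values were seen. The number of rises was 0 without day 1 replicate 1, 0 without replicate 2 and 7 without replicate 3.

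Extracellular matrix genes were among the largest rises. Of 22 small proteoglycan and elastic fibre genes, which organize collagen fibrils and elastin, 8 rose and 1 fell, and 19 differences were positive (list median 0.47). Asporin, Aspn, read 262, 191 and 287 at day 0, 65.2, 124 and 117 at day 1, 371, 688 and 1048 at day 3 and 426, 929.7 and 511 at day 7. All day 7 arrays were above all day 0 arrays and those above all day 1 arrays. Aspn rose by 2.40 ± 0.35 from day 1 (5.27-fold, adjusted p = 0.00721), and its differences from day 0 were -1.18 at day 1 (adjusted p = 0.0434) and 1.22 at day 7 (adjusted p = 0.397). Mfap4, a microfibril protein, read 144, 105 and 117 at day 0, 64.8, 70.2 and 66.4 at day 1 and 292, 340.3 and 260.0 at day 7, in the same order of groups, and rose by 1.91 ± 0.27 (3.75-fold, adjusted p = 0.00607).

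Several other members read near their day 0 level at day 7. Osteoglycin, Ogn, read 1839.6, 1666 and 1968 at day 0, 643, 552 and 1187 at day 1 and 1585, 2282 and 1754 at day 7, and rose by 1.28 ± 0.23 (adjusted p = 0.0145). Lumican, Lum, rose by 1.08 ± 0.18 and dermatopontin, Dpt, by 0.74 ± 0.15, with differences of 0.33 and -0.04 between day 7 and day 0. Biglycan, Bgn, rose by 0.82 ± 0.21, and the latent TGF beta binding protein Ltbp1 by 0.48 ± 0.11, though its other probe sets differed by -0.11 and 0.16. Fibromodulin, Fmod, rose by 1.25 ± 0.26, while its 5 other probe sets differed by 0.43 to 0.79. The fall was Has1, a hyaluronan synthase (-0.70 ± 0.17, adjusted p = 0.0402). Lum, Dpt, Bgn and Has1 were named after their values were seen. The number of rises was 0 without day 1 replicate 1, 3 without replicate 2 and 11 without replicate 3.

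Collagen genes rose in 4 of 30 cases and fell in none, with 24 positive differences (list median 0.43), and the arrays of 15 of them lay wholly above those of day 1, against 14.7% of all genes. Col1a2, a chain of type I collagen, read 1734, 1795 and 1496 at day 1, 2976, 5247 and 6783 at day 3, 3555, 4667 and 3613 at day 7 and 1998, 1766 and 2713 at day 0. The day 3 arrays were spread most widely and reached the highest level, and Col1a2 rose by 1.22 ± 0.25 between day 1 and day 7 (2.33-fold, adjusted p = 0.0207). Col3a1, the chain of type III collagen, rose by 1.00 ± 0.25 (adjusted p = 0.0389), the fibril-associated Col14a1 by 1.69 ± 0.28 and Col16a1 by 0.49 ± 0.13. Col1a1, the other chain of type I collagen, differed by 0.78 ± 0.27 and was not called (interval 0.20 to 1.36, adjusted p = 0.109). With the mean of all probe sets Col1a2 (0.87, adjusted p = 0.0526) and Col3a1 (0.93, adjusted p = 0.12) were not called either. The number of rises was 0 without day 1 replicate 1, 0 without replicate 2 and 5 without replicate 3.

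Cilp, a matricellular protein of cartilage and fibroblasts, read 368, 322 and 412 at day 0, 264, 274 and 308 at day 1, 727, 1604 and 1937 at day 3 and 1126, 1991 and 1287 at day 7. At day 1 every array was below every day 0 array, and at day 3 and day 7 every array was above. Cilp rose by 2.28 ± 0.29 from day 1 (4.84-fold, adjusted p = 0.00462) and stood 1.91 ± 0.29 above day 0 (adjusted p = 0.0386), which makes it the 1 matrix gene among the 7 called between day 7 and day 0. Of the 24 matricellular and activated fibroblast genes, the Wnt modulator Sfrp2 (1.53 ± 0.35) and the fibroblast protease Fap (1.06 ± 0.27) also rose, and Ccn1, an early response matrix protein, fell by 1.11 ± 0.28, a call lost with the mean of its probe sets (adjusted p = 0.0532). Periostin, Postn, read 960.4, 1281 and 587 at day 1 and 1901, 3627 and 2255 at day 7 without overlap, and its difference of 1.46 ± 0.41 missed the threshold (interval 0.58 to 2.34, adjusted p = 0.0584). The number of rises was 1 without day 1 replicate 1, 1 without replicate 2 and 5 without replicate 3.

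Proteases and their inhibitors moved in both directions, 4 up and 2 down of 21 (list median -0.09). Timp1, an inhibitor of matrix metalloproteinases, read 175, 159.6 and 339 at day 0, 4206, 5808 and 1224 at day 1, 1284, 2438 and 3487 at day 3 and 426, 669 and 869.6 at day 7. Day 7 lay below every day 1 array and above every day 0 array. Timp1 fell by 2.28 ± 0.51 (4.85-fold, adjusted p = 0.0295), and the day 7 level was 2.83 times that of day 0 (adjusted p = 0.465). The gelatinase Mmp2 read 298, 356 and 399.6 at day 1 and 718, 1084 and 994 at day 7, without overlap, and rose by 1.36 ± 0.18 (2.56-fold, adjusted p = 0.00528). Adamtsl2, which binds microfibrils, rose by 1.06 ± 0.13 from 103, 99.5 and 96.7 to 231, 236 and 209.5, the inhibitor Timp2 by 0.71 ± 0.15 and the aggrecanase Adamts5 by 0.75 ± 0.18. Timp2 and Adamts5 were named after their values were seen. Mmp8, the other fall, was given with the neutrophil genes. The list had 1, 2 and 5 rises and 0, 0 and 8 falls without day 1 replicates 1, 2 and 3 in turn.

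Tgfb2, a ligand of the TGF beta family, read 470.4, 477 and 238 at day 1, 131, 174 and 135 at day 7 and 101, 118 and 109 at day 0, and fell by 1.28 ± 0.26 (adjusted p = 0.0214). Day 7 lay between the other groups. Of 23 genes of that pathway it was the only fall, and the latent binding proteins Ltbp3 (0.65 ± 0.11) and Ltbp1 rose. Nox4, an NADPH oxidase that is active in fibroblasts and muscle cells, read 44.8, 53.8 and 52.1 at day 0, 44, 30.1 and 49.8 at day 1, 42.3, 70.5 and 171 at day 3 and 149, 164 and 165 at day 7. The day 7 arrays lay close together above all of day 0 and day 1, while the day 3 arrays ranged over both levels. Nox4 rose by 1.63 ± 0.30 (3.09-fold, adjusted p = 0.0154), and its other probe set differed by 0.54. In the list of 21 NADPH oxidase and antioxidant genes, the Nrf2 targets Txnrd1 (-0.85 ± 0.19) and Osgin1 (-0.35 ± 0.09) fell. Without day 1 replicate 1 neither list had a call, and without replicate 3 the TGF beta list had 4 rises and 3 falls and the oxidase list 1 rise and 9 falls.

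Of 14 genes of the renin-angiotensin system 2 rose and none fell. Agt, the precursor of angiotensin, read 70.7, 69.9 and 88 at day 1, 160.1, 104 and 139 at day 7 and 125, 128 and 104 at day 0 and rose by 0.69 ± 0.14 (adjusted p = 0.0198), and the peptidase Mme, neprilysin, rose by 0.70 ± 0.16, though its other probe set differed by 0.02. Rises in this list numbered 0 without day 1 replicate 1, 0 without replicate 2 and 5 without replicate 3. Agtr1a, the receptor itself, differed by 0.12 ± 0.18 (interval -0.27 to 0.51), with a direction that turned to -0.056 without day 1 replicate 2, and Ace by 0.41 ± 0.17 (interval 0.03 to 0.79).

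Circadian clock genes gave 3 rises and 1 fall of 19. Rora rose by 0.85 ± 0.15, and its 8 other probe sets differed by 0.01 to 0.67. Nr1d2 rose by 0.65 ± 0.16 and Per3 by 0.72 ± 0.16, neither of them called with the mean of all probe sets, and Nr1d1 fell by 0.58 ± 0.13 from 153, 203 and 179 to 111, 98.8 and 133. Rises among clock genes numbered 0 without day 1 replicate 1, 0 without replicate 2 and 7 without replicate 3. The hour at which hearts were taken is not given in the sources used here, and its part in these differences was not tested.

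The remaining lists held few calls. In 20 glucocorticoid-responsive and metallothionein genes, Lcn2, Angptl4 (-1.90 ± 0.43) and Gadd45b (-0.70 ± 0.16) fell, the last not called with the mean of its probe sets (adjusted p = 0.0865). Among vascular genes the endothelial adhesion protein Selp fell by 1.88 ± 0.47 from 516, 718 and 104 to 84, 64.1 and 99.8, a mean that rests on replicates 1 and 2, the pericyte gene Rgs5 rose by 0.35 ± 0.08, and the smooth muscle gene Synpo2 fell by 0.51 ± 0.12, with other probe sets at -0.10 to 0.16. Of 29 cell division genes the fall of Cenpa (-0.52 ± 0.12) rested on 1 probe set, the others being at 0.02 and 0.12. Mki67, a proliferation marker named after its values were seen, read 73.7, 33.6 and 46 at day 1, 66.2, 244 and 438 at day 3 and 86.3, 83.7 and 71.5 at day 7, and its difference of 0.56 ± 0.44 was not called (interval -0.39 to 1.52). Slc2a4 was the only call among 11 adipocyte genes, and limma called none of 18 cholesterol synthesis genes, with 5 at an unadjusted p under 0.05. The shares over all genes were 4.92% and 21.9%. Without day 1 replicate 1, and also without replicate 2, limma called no gene of the lists named in this paragraph.

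**Figure D4:**
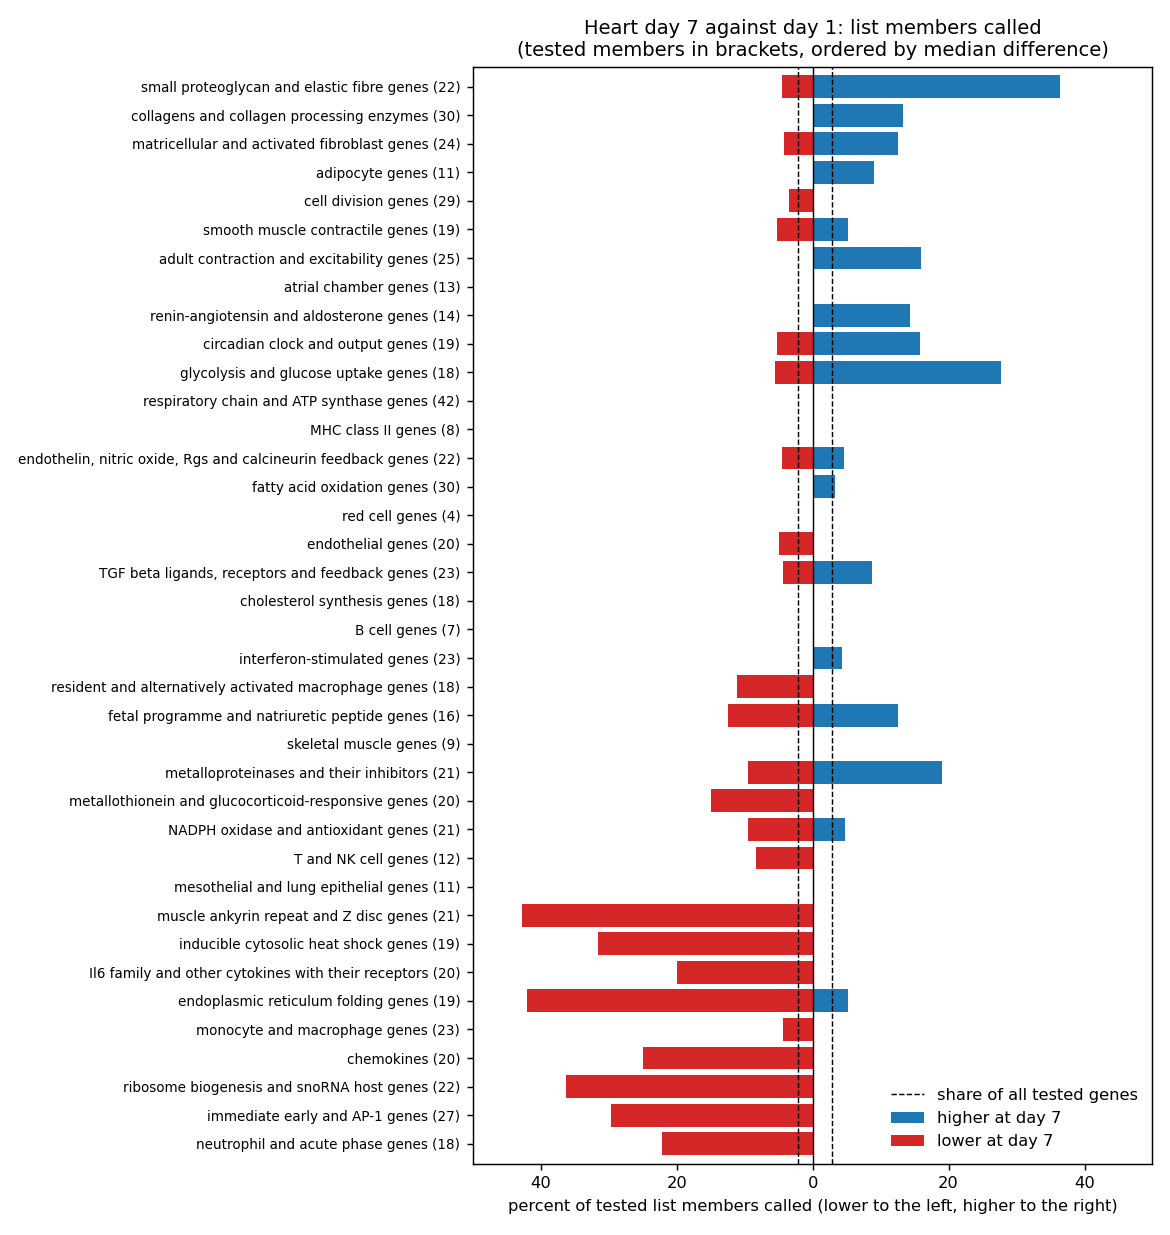
Percent of the tested members of each of 38 gene lists (y axis, number tested in brackets, ordered by median difference) that were called lower (red, to the left) or higher (blue, to the right) at day 7 than at day 1 (x axis). Dashed lines mark the share of all 14040 genes, 2.12% lower and 2.8% higher. Z disc, folding, ribosome biogenesis, heat shock and immediate early genes reach furthest to the left, and proteoglycan and glycolysis genes furthest to the right.

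The rule for the largest changes also named genes outside the lists. Itih5, a hyaluronan-binding inhibitor, read 401, 333 and 368 at day 0, 70.5, 106 and 151 at day 1 and 472, 477 and 429.6 at day 7. Day 1 was low on all 3 arrays, and Itih5 rose by 1.98 ± 0.21 (3.93-fold, adjusted p = 0.00445). Itgbl1 rose by 1.78 ± 0.36, Islr, a leucine-rich repeat protein of mesenchymal cells, by 1.69 ± 0.24, and Fndc1, a fibronectin domain protein, by 1.35 ± 0.28. Cpxm2, a carboxypeptidase-like protein, rose by 1.48 ± 0.23, while its other probe set differed by 0.28. Shld1, of the shieldin complex of DNA repair, rose by 1.39 ± 0.23 and Asb10, of a family of ubiquitin ligase adaptors, by 1.37 ± 0.27. Against day 0, Islr, Cpxm2, Shld1 and Asb10 stood at -1.36, -1.13, -1.53 and -1.67 at day 1. At day 7 they stood at 0.33, 0.35, -0.13 and -0.29, so they rose from a low day 1 level to near that of day 0. Itgbl1 and Fndc1 stood at -0.63 and -0.66 at day 1 and at 1.15 and 0.69 at day 7. Among the falls, Bcr, a GTPase regulator, fell by 2.23 ± 0.36, although its other probe sets differed by -0.07 and -0.32.

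The same comparison was made in kidney, with 2 arrays at each of the same days and the same dose. In a joint fit of 20 heart and kidney arrays, 108 of 14647 genes (0.737%) differed between the organs in their change from day 1 to day 7, and 2227 (15.2%) had an unadjusted p under 0.05. Kidney alone gave 43 called genes (0.294%). The 4 genes given next were called in 6 to 8 of 10 fits that leave out a heart or kidney array of these days. Ccl2 fell by 3.13 ± 0.40 in heart and stood at 0.40 ± 0.47 in kidney, a difference between the organs of -3.53 ± 0.60 (adjusted p = 0.0175). Its kidney arrays read 31.5 to 75.6, against 318 to 1668 in heart at day 1 and 66.2 to 86 at day 0. Kidney thus had no such high day 1 level of Ccl2 to fall from, and the organ difference largely restates the heart difference. Fhl1 fell by 1.47 ± 0.19 in heart and stood at 0.38 ± 0.21 in kidney (difference -1.85 ± 0.27, adjusted p = 0.016). Adamtsl2 rose by 1.06 ± 0.13 in heart and stood at -0.10 ± 0.15 in kidney (difference 1.17 ± 0.20, adjusted p = 0.0175). Agt differed by 0.69 ± 0.14 in heart and by -0.68 ± 0.18 in kidney (difference 1.37 ± 0.24, adjusted p = 0.0175). The count of 108 was 2 without heart day 1 replicate 1 and 1292 without heart day 1 replicate 3, and between 4 and 185 without any single kidney array of these days. Cyp11b1, an enzyme of the adrenal cortex that read 391 and 893 on other kidney arrays of the series, read 10.2 to 18.8 on these 4.

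**Figure D5:**
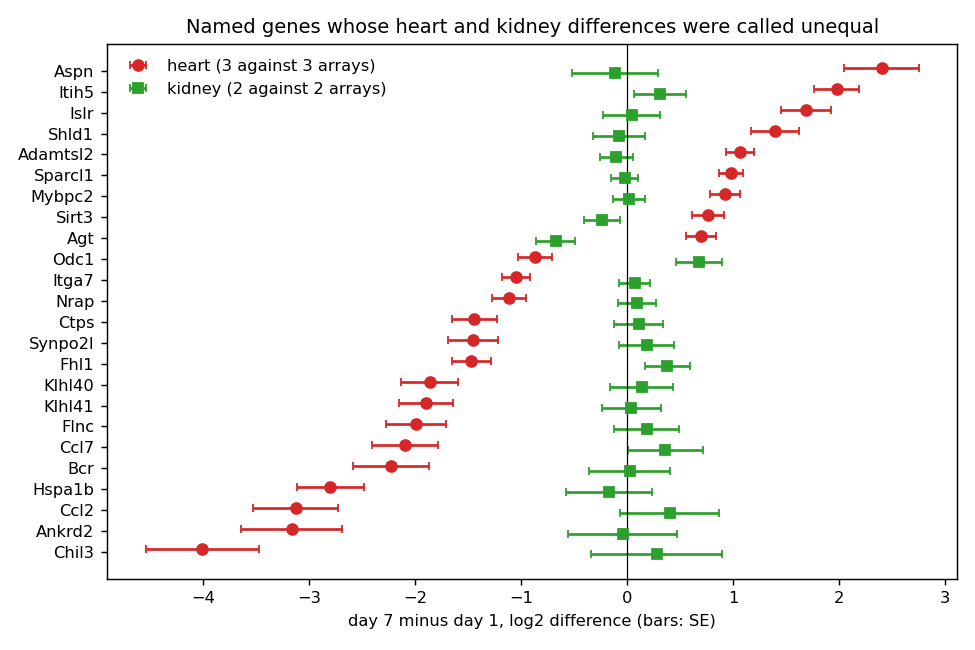
Difference between day 7 and day 1 on the log2 scale (x axis, bars are standard errors) in heart (red circles, 3 against 3 arrays) and kidney (green squares, 2 against 2 arrays) for the named genes (y axis) whose differences were called unequal between the organs. Chil3, Ankrd2 and Ccl2 have the lowest heart values and kidney values whose standard error bars reach 0, and Agt and Odc1 lie on opposite sides of 0 in the organs.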

How the data were processed

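The deposited values are intensities on a linear scale for 45101 Affymetrix probe sets, which the authors made, per the submitters' processing notes, in Affymetrix Expression Console. Its version and summarization algorithm were not given in the sources used here. Platform annotation gave 1 gene symbol to 34945 probe sets, several to 932 and none to 9160, and 64 were controls. Of the 18193 genes, 9010 had several probe sets, and the one with the highest mean over all 30 arrays was used. Genes were tested where log2(value + 16) lay above the 40th percentile of its array on at least 3 of the 12 heart arrays.

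A group-means model without blocks was fitted to the 12 heart arrays with limma 3.58.1 in R 4.3.3, and p-values were Benjamini-Hochberg adjusted over all tested genes at 0.05. Intervals are unadjusted and cover 95%. The p-values measure the spread between arrays that the labels call biological replicates. The fit was tested on simulated data. Same-numbered arrays of day 1 and day 7 did not deviate together (correlations -0.13, 0.05 and -0.10), and arrays of unlike number gave -0.07 to 0.14. No sign of pairing by number was seen, but so few arrays cannot exclude it. The organs were compared in a joint fit of 20 arrays.

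The members and lists were chosen with earlier results of these data known. Genes named were the 15 largest rises and falls whose groups did not overlap, up to 4 called members of each list by size (or the one with the smallest p where none passed), genes called between day 7 and day 0, and a fixed set of 13 genes, and others are said to be chosen after their values were seen. Promoter windows come from RefSeq on GRCm38.p6, for 6 of 7 genes sought. Alternatives changed the added value, the filter, normalization, probe set rule, variance prior, arrays fitted, block and weights. Python 3.11.15 with pandas 2.3.3 and matplotlib 3.10.9 drew the figures.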

Additional observations from a re-analysis of the deposited data

Results flagged for a closer look

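For 24 of the named genes the change from day 1 to day 7 differed between heart and kidney by the interaction test of the joint limma fit (adjusted p under 0.05). Values are the heart difference minus the kidney difference on the log2 scale, with its standard error, from 3 against 3 heart and 2 against 2 kidney arrays. In the 10 fits that leave out 1 of these arrays, Fhl1 was called in 8, Sparcl1 in 7, Hspa1b and Mybpc2 in 2, and Ankrd2, Bcr, Islr, Shld1 and Sirt3 in 1, and the other genes in 3 to 6. Among inflammation genes the value was -4.29 ± 0.80 for Chil3, -3.53 ± 0.60 for Ccl2 and -2.46 ± 0.46 for Ccl7. The kidney differences of the last pair were 0.40 ± 0.47 and 0.36 ± 0.35. Kidney intensities were 38.1 to 87.7 for Chil3, 31.5 to 75.6 for Ccl2 and 30.9 to 55.3 for Ccl7. The lowest heart readings at day 1 were 660, 318 and 170. Kidney thus had no such high day 1 level of these genes, and their organ differences largely restate the heart differences. Hspa1b, the inducible Hsp70, differed by -2.63 ± 0.52.

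For genes of muscle fibres the value was -3.12 ± 0.67 for Ankrd2, -2.17 ± 0.40 for Flnc, -1.85 ± 0.27 for Fhl1 and -1.64 ± 0.33 for Synpo2l. It was -2.00 ± 0.38 for Klhl40, -1.94 ± 0.36 for Klhl41, -1.21 ± 0.23 for Nrap and -1.12 ± 0.19 for the laminin receptor subunit Itga7. The fast myosin-binding protein Mybpc2 went the other way (0.91 ± 0.20). In kidney, the intensities of Klhl41 (6.67 to 8.22) and Klhl40 (15.6 to 23.8) lay below the 40th percentile on all 4 arrays, and those of Mybpc2 (20.6 to 27.2) did so on 2. For these genes a change in kidney could hardly have been measured, and the organ difference restates the heart difference. The kidney intensities of Ankrd2 were 30.1 to 35.1 and those of Flnc 74.5 to 92, above that percentile on all 4 arrays. Those of Ankrd2 were still low, near its heart readings at day 0 (28.8 to 33.6), so a fall in kidney could hardly have been measured.

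Matrix genes called between the organs had positive values, with 2.52 ± 0.52 for Aspn, 1.67 ± 0.31 for Itih5, 1.65 ± 0.35 for Islr, 1.17 ± 0.20 for Adamtsl2 and 1.00 ± 0.17 for Sparcl1. Other matrix genes named in heart were not called between the organs, with -0.10 for Col3a1 (adjusted p = 0.966), 0.56 for Col1a2 (adjusted p = 0.577), 0.81 for Ogn (adjusted p = 0.305), 0.91 for Fmod (adjusted p = 0.306) and 1.78 for Cilp (adjusted p = 0.132). Agt differed by 1.37 ± 0.24, the mitochondrial deacetylase Sirt3 by 1.00 ± 0.22 and Shld1 by 1.48 ± 0.32. The polyamine enzyme Odc1 differed by -1.55 ± 0.28, with a kidney difference of 0.68 ± 0.22, and the nucleotide enzyme Ctps by -1.55 ± 0.30. Bcr differed by -2.25 ± 0.50, on a probe set that its other probe sets did not follow in heart.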

How the results depend on the processing

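The count of 691 called genes moved by over 1.5 times with the arrays that entered the fit, their weights and the replicate block. With the filter, added value, normalization, probe set rule or variance prior changed, it ran from 486 to 966. It was 46 with only the 6 arrays of the comparison (37 rose, 9 fell), 1316 in the joint fit with kidney (738 and 578), 424 with the replicate number as a block (236 and 188) and 5590 with array quality weights (3145 and 2445). The falls were 194 without the filter and 490 after quantile normalization. Leaving out 1 heart array gave 11 to 2482 calls, 4 to 1310 rises and 7 to 1172 falls. Over the gene lists, 111 calls became 19 with only the 6 arrays, 414 with weights and 7 to 252 without 1 array. Between day 1 and day 0 the 1886 calls became 6085 with weights and 405 to 3441 without 1 array. Between day 7 and day 0 the 7 calls became 14 with kidney, 753 with weights, 15 without the day 3 arrays (chosen after seeing the data) and 6 to 23 without 1 array. The 108 calls between organs became 2 to 1292. No sign of pairing by replicate number was seen, and not every array correlated best with its own number. Directions turned for Ano10 with weights (0.022), for Depp1 with the mean of its probe sets (0.0013), with weights (0.11) and without day 7 replicate 1 (-0.14 to 0.12 without 1 array), and for Agtr1a without day 1 replicate 2 (-0.056 to 0.39 without 1 array). Of the named genes' values, 2949 kept direction and side of the threshold, 892 kept direction only and 41 came to pass it. The causes were not tested. Genes near the array background are limited by their signal.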

Other observations

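Genes outside the lists, chosen after their values were seen, were read in the same fit. They were picked for their change, so they show nothing of other genes of their kind. Klhl41, a kelch protein that stabilizes thin filaments, read 1239, 1442 and 623 at day 1, 256, 244 and 302 at day 7 and 366, 380.0 and 237 at day 0, and fell by 1.90 ± 0.26 (adjusted p = 0.00528). Its relative Klhl40 fell by 1.87 ± 0.27, Nrap, which helps to assemble myofibrils, by 1.12 ± 0.16 and the laminin receptor subunit Itga7 by 1.05 ± 0.13. Lmcd1, a LIM protein, fell by 1.67 ± 0.35 and muscle caveolin, Cav3, by 0.85 ± 0.13. Psat1, an enzyme of serine synthesis, read 169, 173 and 104 at day 1, 37.3, 26.3 and 35.1 at day 7 and 20.9, 19.8 and 23.9 at day 0. All day 1 arrays lay above all day 7 arrays, and Psat1 fell by 1.73 ± 0.22 (3.31-fold, adjusted p = 0.00462). Ctps, the CTP synthase, fell by 1.45 ± 0.21, the uridine kinase Uck2 by 1.68 ± 0.37, ornithine decarboxylase Odc1 by 0.87 ± 0.16 and spermidine synthase Srm by 1.18 ± 0.24. Asns, of asparagine synthesis, differed by -0.74 ± 0.27 and was not called (interval -1.31 to -0.16, adjusted p = 0.125).

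Bdh1, the ketone body dehydrogenase, read 582, 586 and 620.1 at day 1, 1174, 1145 and 1015 at day 7 and 1502, 1189 and 1138 at day 0, and rose by 0.88 ± 0.12 (adjusted p = 0.00607). The deacetylase Sirt3 rose by 0.76 ± 0.15, the desuccinylase Sirt5 by 0.75 ± 0.19, the transcription terminator Mterf2 by 1.07 ± 0.27, and the assembly factors Ndufaf1 and Sdhaf4 by 0.72 ± 0.15 and 0.92 ± 0.16. Other rises were those of Sparcl1, a relative of osteonectin that read 994, 1015 and 1323 at day 1 and 2085, 2283 and 2183 at day 7 (0.98 ± 0.11), the fibroblast protein Pi16 (1.15 ± 0.18), the anti-angiogenic serpin Serpinf1 (1.23 ± 0.22), the collagen-binding receptor Antxr1 (1.29 ± 0.23) and the ferritin receptor Scara5 (0.83 ± 0.15).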
